A study of Mus musculus with 26 samples.

Results

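The suppressor of cytokine signalling (SOCS) family comprises the genes Cish and Socs1 to Socs7. Every probe set that the array annotation pairs with exactly 1 of these 8 symbols was taken, whatever its value. That gave 12 probe sets among the 21789 that carry a single gene symbol. Socs6 is read by 3 probe sets, Socs2 and Socs3 by 2 each, and the other 5 genes by 1 each. The cells were Ba/F3/gp130, a murine pro-B line that depends on interleukin-3 or Hyper-IL-6 (IL-6 fused to its soluble receptor) and also carries the IL-6 family receptor gp130. Cells with natural receptors carried IL-10R2 and IL-22Rα1, the chain pair of IL-22, and were left untreated (n = 4 arrays) or received IL-22 (n = 4). Cells with synthetic receptors carried mCherryVHHIL-10R2 and GFPVHHIL-22Rα1. In these a nanobody (VHH) against mCherry or GFP is joined to the named chain. They were left untreated (n = 6) or received 1 of 2 ligands (n = 6 each). The fusion GFP-mCherry offers a site to both nanobodies. The other ligand, mCherry-Fc, is mCherry joined to an antibody Fc part. It is a dimer with sites for the mCherry nanobody only, so it can bind more than 1 mCherryVHHIL-10R2 chain.

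All 5 groups were washed 4 times and held without serum for 4 h. The proteins were given at 100 ng/ml, and the protocol states 2 h unless indicated, with no other time on any label. The model is a single cytokine-dependent line that carries added receptors and gp130, each receptor pair exists in its own line, and no group received a control protein. A single time after starvation was measured. The labels do not say whether arrays of a group came from separate cultures, or whether a line is 1 clone, so the p-values measure the spread between these arrays, which may be technical. The series asks whether the constructs act without background, and its title names activity of paired IL-10R2 chains and cross-talk with gp130.

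Cytokine receptors without enzyme activity of their own signal through Janus kinases, which phosphorylate STAT transcription factors, and STATs switch on SOCS genes that then damp the same signal. Each SOCS protein has an SH2 domain that binds phosphorylated tyrosines and a SOCS box that recruits elongins, a cullin and a RING protein to mark targets for degradation. Socs1 and Socs3 encode the members that also block Janus kinases directly, the Socs3 protein binds gp130 itself, Cish and Socs2 encode inhibitors best known from STAT5-activating receptors, and Socs4 to Socs7 are less often described as cytokine-induced.

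The promoters of Socs3 and Cish, the members that rose most with IL-22, carry candidate STAT recognition sequences. These sequences are shown because the changes described here centre on these genes. STAT dimers recognise TTCNNNGAA, and the tighter form TTCCNGGAA is the usual description of a STAT5 site. The RefSeq table (build GRCm38.p6) has windows of 250 bases before and 50 after gene starts. Of the members, the windows of Cish, Socs1, Socs3 and Socs4 were searched. Socs2, Socs5 and Socs7 have no RefSeq window and were not searched. Member windows on the chromosome of Socs6 were left out of the search. Capitals mark each TTCNNNGAA match below. Socs3 is shown for chr11:117969367-117969616 on the minus strand (250 bases before the start) and Cish for chr9:107296559-107296683 on the plus strand (100 bases before the start to 25 after it).
Socs3: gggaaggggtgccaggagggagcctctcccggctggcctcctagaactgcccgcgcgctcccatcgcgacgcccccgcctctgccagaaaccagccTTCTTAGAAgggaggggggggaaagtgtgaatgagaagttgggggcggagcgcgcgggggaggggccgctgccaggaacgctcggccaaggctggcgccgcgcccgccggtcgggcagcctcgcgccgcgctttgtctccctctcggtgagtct
Cish: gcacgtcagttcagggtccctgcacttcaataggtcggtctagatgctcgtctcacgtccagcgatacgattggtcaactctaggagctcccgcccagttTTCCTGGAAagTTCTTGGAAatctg
The Socs3 match, TTCTTAGAA, begins at base -154 from the start. Cish has 2 matches just after the start, TTCCTGGAA at bases 1 to 9 and TTCTTGGAA at bases 12 to 20. The first of them also fits TTCCNGGAA. The windows of Socs1 and Socs4 hold no match to either pattern. Both strands were searched. Of 32851 windows of this length, 8.30% hold at least 1 TTCNNNGAA and 0.457% hold 2 or more, and 1.15% hold TTCCNGGAA. A match describes letters and is no evidence of binding.

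The values are log2 intensities, in which a difference of 1 is a doubling. Over the arrays they span 1.79 to 14.31, with array medians of 6.06 to 6.28, and arrays within a group correlated at 0.981 to 0.994 across probe sets. The natural receptor chain was read by Il22ra1 probe set 10509063 at 12.31 ± 0.11 (SD, n = 4) in untreated natural cells and 6.32 ± 0.10 (n = 6) in untreated synthetic cells. A second Il22ra1 probe set, 10509071, read 5.84 ± 0.15 and 6.0 ± 0.16 in the same groups. Il10rb, the gene of the IL-10R2 chain, read 11.95 ± 0.23 and 10.05 ± 0.07 there, a difference of -1.89. In synthetic cells it read 10.31 ± 0.04 with GFP-mCherry and 10.10 ± 0.07 with mCherry-Fc. Il6st, the mouse gene of gp130, stood at 4.86 to 5.05 as group means. Of 11 measured pro-B markers, Cd79a, Cd79b, Il3ra and Csf2rb lay well above the array medians, while Ebf1, Pax5, Vpreb1, Rag1 and Il7r lay below them. The mean of 11 was 6.77 to 7.02 on every array. The mean of 5 myeloid markers set some natural arrays apart: it was 7.35 and 7.58 on untreated replicates 4 and 5 and 7.60 on IL-22 replicate 5, against 6.19 to 6.34 on the other 5 natural arrays and 5.27 to 5.69 on the 18 synthetic arrays. Of the 5, the integrin gene Itgam and the lysozyme gene Lyz2 set the arrays apart: Itgam read 8.73 to 12.05 on natural arrays and 4.72 to 6.02 on synthetic ones, and Lyz2 reached 8.21 on natural arrays and 5.55 on synthetic ones. The group means of Cd14, Csf1r and Elane in untreated cells were 4.99, 6.23 and 6.16 in the natural line and 4.85, 6.04 and 6.09 in the synthetic line. In such bulk RNA a change in the mix of cells and a change of RNA per cell cannot be told apart. These arrays have the higher label numbers of the line, and values within the low numbers (natural 1 to 3, synthetic 7 to 11) and within the high ones are given for each member where they change a call.

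IL-22 on natural receptors raised 9 of the 12 SOCS probe sets and lowered none. Of all probe sets it raised 5.53% and lowered 5.81%, 11.3% in either direction. By the brightest probe set of each gene, Socs3, Cish, Socs2, Socs1, Socs5 and Socs6 rose, and Socs4 and Socs7 did not pass the threshold (limma's moderated test, adjusted p under 0.05 over all 21789). The median difference was 0.38 over the 12 and -0.02 over all probe sets. Groups did not overlap for 6 of the 12, against 5.1% of all probe sets higher without overlap. In the synthetic line GFP-mCherry raised 6 of 12 (background 14.7% raised, 11.7% lowered, 26.4% in either direction), of Socs3, Cish, Socs2, Socs6 and Socs7. The fusion mCherry-Fc also raised 6 of 12 (background 14.2% raised, 12.8% lowered, 26.9% in either direction), of Socs3, Cish, Socs2, Socs6 and Socs4. Neither lowered any. Medians were 0.19 and 0.25 over the 12 against -0.04 and -0.03 over all, and 5 probe sets did not overlap with untreated arrays in each, against 10.2% of all probe sets for GFP-mCherry and 7.98% for mCherry-Fc. Both synthetic comparisons share the same 6 untreated arrays, so their likeness is not independent. The levels on every array are plotted by group.

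**Figure D1:**
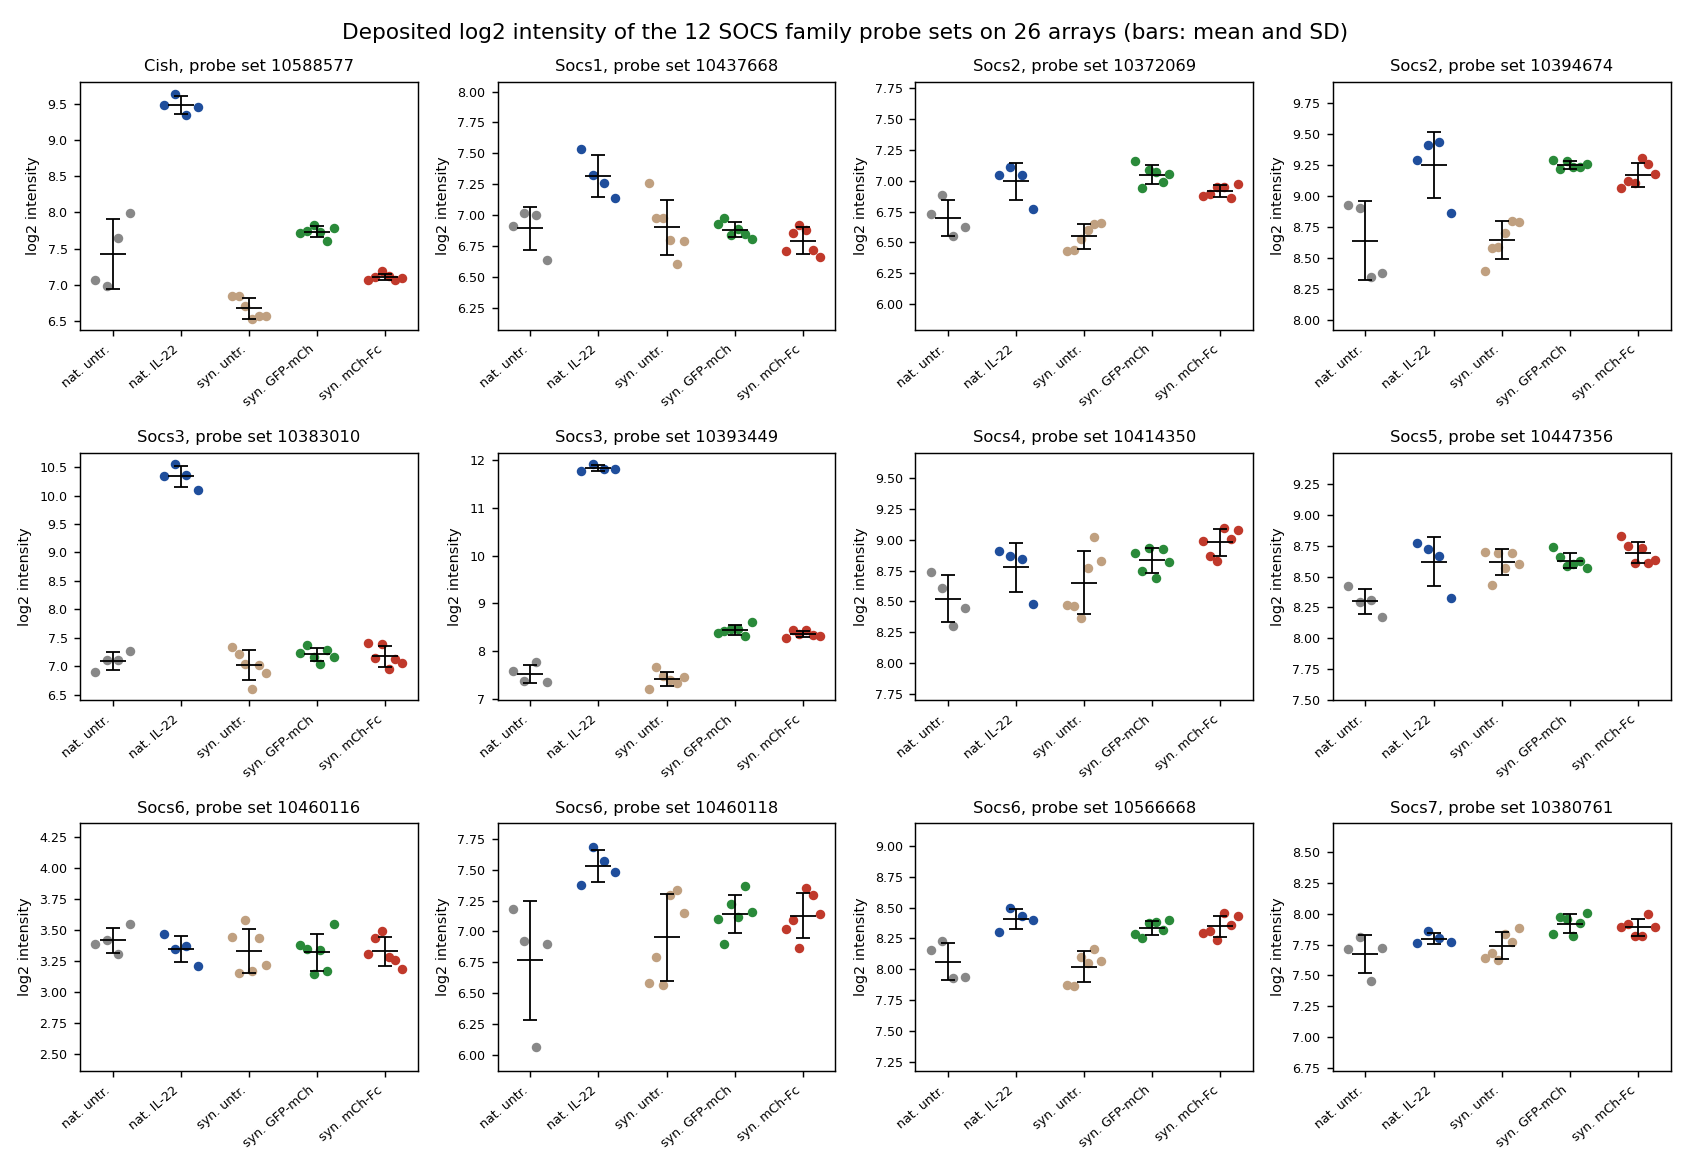
Log2 intensity (y axis, a separate scale in each panel) of the 12 SOCS family probe sets in the 5 groups (x axis: natural untreated and IL-22, synthetic untreated, GFP-mCherry and mCherry-Fc). Points are arrays in the order of their label numbers, bars are the mean and SD. Socs3 (10393449) rises from 7.53 to 11.83 with IL-22 and stands at 8.45 and 8.36 with the synthetic ligands, and natural untreated Cish splits into a lower and a higher pair of arrays.

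Socs3, which encodes the Janus kinase inhibitor that docks on gp130, responded most. On probe set 10393449 the 4 untreated natural arrays read 7.59, 7.38, 7.78 and 7.36 (replicates 2 to 5). With IL-22 the arrays read 11.77, 11.92, 11.81 and 11.82 (replicates 1, 2, 3 and 5). All IL-22 arrays lay far above all untreated ones and closer to each other than the untreated arrays did. The rise was 4.30 (SE 0.09, 19.7-fold, adjusted p = 1.39e-23), rank 1 of the 21789 probe sets, and it was 4.34 within the low label numbers and 4.25 within the high ones.

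In synthetic cells the same probe set read 7.21 at the lowest, 7.43 at the median and 7.66 at the highest of the 6 untreated arrays. It read 8.32, 8.44 and 8.61 with GFP-mCherry. With mCherry-Fc it read 8.28, 8.36 and 8.44. Neither ligand group overlapped the untreated arrays, and the ligand groups overlapped each other. The rise was 1.02 with GFP-mCherry (SE 0.07, 2.03-fold, adjusted p = 2.96e-11) and 0.94 with mCherry-Fc (SE 0.07, 1.92-fold, adjusted p = 3.81e-10), ranks 39 and 21 from the top. GFP-mCherry minus mCherry-Fc was 0.08 (95% interval -0.06 to 0.23, adjusted p = 0.822), so a difference beyond 0.23 in favour of GFP-mCherry lies outside the interval. The order of levels was natural IL-22, then both synthetic ligands, then both untreated groups. Within that order the ligands did not differ from each other beyond their spread, nor did untreated synthetic from untreated natural cells (-0.10, adjusted p = 0.482).

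The second Socs3 probe set, 10383010, is tied to the gene by a single sequence record. Its strand and its position relative to Pgs1, the gene next to Socs3, were not checked here, so what it measures is less certain, and it is 1 of the 9 probe sets raised by IL-22. It read 6.89, 7.10, 7.11 and 7.26 on untreated natural arrays and 10.34, 10.55, 10.36 and 10.10 with IL-22, a rise of 3.25 (SE 0.13, 9.49-fold, adjusted p = 3.85e-17, rank 6). In synthetic cells it did not pass the threshold with GFP-mCherry (0.20, adjusted p = 0.155) or mCherry-Fc (0.16, adjusted p = 0.240). Centring each array on its median carried both past it (0.30, adjusted p = 0.0188, and 0.27, adjusted p = 0.0347). Within the high label numbers the GFP-mCherry difference was 0.33 (adjusted p = 0.0442), against 0.06 (adjusted p = 0.657) within the low ones. Across 26 arrays the Socs3 probe sets correlated at 0.96. After the group means were taken out the correlation was -0.21, so the probe sets run together through the differences between groups.

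Socs1 encodes the other direct inhibitor of Janus kinases, best known from interferon signals. It read 6.91, 7.02, 7.00 and 6.64 on untreated natural arrays and 7.54, 7.33, 7.26 and 7.14 with IL-22. The groups did not overlap, though the lowest IL-22 array stood only a little above the highest untreated one. The rise was 0.42 (SE 0.11, 1.34-fold, adjusted p = 0.00630). It was 0.41 (adjusted p = 0.0142) within the low numbers and 0.32 (adjusted p = 0.352) within the high ones, where IL-22 has 1 array.

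In synthetic cells Socs1 read 6.61 at the lowest, 6.89 at the median and 7.26 at the highest of the untreated arrays. With GFP-mCherry it read 6.81, 6.87 and 6.98, and with mCherry-Fc 6.66, 6.79 and 6.92. The 3 groups overlapped and the untreated arrays spread most. Differences from untreated were -0.02 (95% interval -0.19 to 0.16, adjusted p = 0.899) and -0.11 (-0.28 to 0.07, adjusted p = 0.361). Both intervals end below the size of the IL-22 rise.

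Cish, the family's founding member and a STAT5 target, was second in the IL-22 response by gene. Its 4 untreated natural arrays read 7.07, 6.99, 7.64 and 8.00 (replicates 2 to 5), a lower pair and a higher pair. With IL-22 they read 9.49, 9.64, 9.35 and 9.45, a narrow band above all of them. The rise was 2.06 (SE 0.13, 4.17-fold, adjusted p = 3.31e-12, rank 47). The higher untreated pair are the arrays with the high myeloid marker means given above, and the part of those in the result was not tested. Within the low numbers the rise was 2.46 (adjusted p = 1.03e-10) and within the high ones 1.64 (adjusted p = 1.93e-05), in each case with the IL-22 level nearly the same (9.49 and 9.45).

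Synthetic cells gave tighter Cish values. Untreated arrays read 6.53 at the lowest, 6.64 at the median and 6.85 at the highest. With GFP-mCherry they read 7.60, 7.74 and 7.83, and with mCherry-Fc 7.06, 7.10 and 7.19. The 3 groups formed separate bands, untreated lowest and GFP-mCherry highest. GFP-mCherry raised Cish by 1.06 (SE 0.11, 2.08-fold, adjusted p = 7.29e-08) and mCherry-Fc by 0.43 (SE 0.11, 1.35-fold, adjusted p = 0.00541). The mCherry-Fc rise was 0.32 (adjusted p = 0.00951) within the low numbers and 0.54 (adjusted p = 0.00156) within the high ones.

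Cish was the only SOCS probe set to differ between the synthetic ligands, 1 of 12 against a background of 1.13% changed, 0.766% higher and 0.367% lower with GFP-mCherry. GFP-mCherry exceeded mCherry-Fc by 0.63 (SE 0.11, 1.54-fold, adjusted p = 0.00113), with all 6 arrays above all 6, as in 1.55% of all probe sets. It was 0.64 (adjusted p = 0.000317) within the low numbers and 0.61 (adjusted p = 0.00459) within the high ones. With the replicate number as a fixed block, which pairs 3 arrays of each group, the size was the same, 0.61, and the adjusted p was 0.0788, so the call is lost and the count of members called falls to 0. For the other 11 probe sets this difference ran from -0.14 (Socs4) to 0.13 (Socs2, 10372069), with adjusted p-values from 0.528 to 0.994. The order of the 5 levels was natural IL-22 (9.48), synthetic GFP-mCherry (7.73), natural untreated (7.42), synthetic mCherry-Fc (7.11) and synthetic untreated (6.68). GFP-mCherry against natural untreated cells did not pass the threshold (0.31, adjusted p = 0.0546), and mCherry-Fc was below natural untreated cells (-0.32, adjusted p = 0.0438).

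Socs2 encodes the member best known for restraining growth hormone signals, and it rose with all 3 ligands. Probe set 10394674 read 8.93, 8.91, 8.35 and 8.38 on untreated natural arrays and 9.29, 9.41, 9.44 and 8.86 with IL-22. Replicates 4 and 5 were low in both states, so the groups overlapped: IL-22 replicate 5 read below untreated replicates 2 and 3. The rise was 0.61 (SE 0.12, 1.53-fold, adjusted p = 0.000622), 0.46 within the low numbers (adjusted p = 0.000378) and 0.50 within the high ones (adjusted p = 0.00570).

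In synthetic cells this Socs2 probe set read 8.40 at the lowest, 8.65 at the median and 8.80 at the highest of the untreated arrays. It read 9.22, 9.25 and 9.29 with GFP-mCherry and 9.06, 9.15 and 9.31 with mCherry-Fc. Each ligand group lay wholly above the untreated arrays, and the GFP-mCherry arrays lay closest together. The rises were 0.61 (SE 0.10, 1.53-fold, adjusted p = 4.18e-05) and 0.53 (SE 0.10, 1.44-fold, adjusted p = 0.000332). Probe set 10372069 gave rises of 0.30 with IL-22 (adjusted p = 0.00802), 0.50 with GFP-mCherry (adjusted p = 1.11e-06) and 0.36 with mCherry-Fc (adjusted p = 0.000113). Its IL-22 rise lost the call with the replicate number as a block (0.23, adjusted p = 0.0863) and within the high numbers (0.19, adjusted p = 0.362). With only the 2 natural groups in the fit, both Socs2 probe sets missed the threshold for IL-22 (adjusted p = 0.0631 and 0.127), as did Socs5 (adjusted p = 0.113).

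Among the members with long N-terminal parts, Socs6 is an adaptor described at insulin and KIT receptors. It rose with all 3 ligands on its brightest probe set only. Probe set 10566668 read 8.15, 8.23, 7.93 and 7.94 on untreated natural arrays and 8.30, 8.49, 8.43 and 8.40 with IL-22. In synthetic cells it read 7.86, 8.06 and 8.16 (lowest, median, highest) untreated, 8.26, 8.35 and 8.40 with GFP-mCherry and 8.24, 8.33 and 8.45 with mCherry-Fc. No ligand group overlapped its own untreated group. The rises were 0.35 (SE 0.07, adjusted p = 0.00170), 0.31 (SE 0.06, adjusted p = 0.000371) and 0.32 (SE 0.06, adjusted p = 0.000355). Within the low numbers the IL-22 rise was 0.22 (adjusted p = 0.0931).

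Probe set 10460118, annotated to Socs6 by the same sequence records, spread more widely. It read 7.18, 6.92, 6.07 and 6.90 on untreated natural arrays and 7.38, 7.68, 7.57 and 7.48 with IL-22. The untreated replicate 4 lay far below the rest, and the groups did not overlap. The rise was 0.76 (SE 0.18, 1.69-fold, adjusted p = 0.00392), 0.49 within the low numbers and 0.99 within the high ones. In synthetic cells it did not pass the threshold with GFP-mCherry (0.19, adjusted p = 0.348) or mCherry-Fc (0.18, adjusted p = 0.386). There the untreated arrays fell into 6.56 to 6.79 at the low label numbers and 7.15 to 7.33 at the high ones, and the GFP-mCherry difference was 0.43 (adjusted p = 0.00905) within the low numbers and -0.05 (adjusted p = 0.880) within the high ones. The mCherry-Fc difference was 0.35 (adjusted p = 0.0313) and 0.00 (adjusted p = 0.989). The third Socs6 probe set, 10460116, had a mean of 3.34, in the dimmest 6.91% of all probe sets, and passed no test, the ligand difference farthest from 0 being -0.07 (IL-22).

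Socs5 and Socs4 encode related proteins studied mainly at the EGF receptor. Socs5 read 8.42, 8.29, 8.31 and 8.17 on untreated natural arrays and 8.77, 8.72, 8.67 and 8.33 with IL-22. The groups overlapped through IL-22 replicate 5 alone. The rise was 0.32 (SE 0.08, 1.25-fold, adjusted p = 0.00691), 0.36 (adjusted p = 0.0136) within the low numbers and 0.09 (adjusted p = 0.789) within the high ones. Differences in synthetic cells were 0.01 with GFP-mCherry (95% interval -0.12 to 0.15) and 0.08 with mCherry-Fc (-0.06 to 0.21).

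Socs4 read 8.73, 8.61, 8.30 and 8.45 on untreated natural arrays and 8.91, 8.87, 8.85 and 8.48 with IL-22, a difference of 0.25 that did not pass the threshold (adjusted p = 0.219). Without IL-22 replicate 5 it was 0.35 and did (adjusted p = 0.0468). In synthetic cells it read 8.36, 8.62 and 9.02 untreated, 8.69, 8.85 and 8.93 with GFP-mCherry and 8.83, 9.00 and 9.10 with mCherry-Fc. All groups overlapped. It rose with mCherry-Fc (0.32, SE 0.10, adjusted p = 0.0153) and the GFP-mCherry difference of 0.18 missed the threshold (adjusted p = 0.173). The mCherry-Fc call was lost with quantile normalization (0.24, adjusted p = 0.0589), with the replicate block (0.28, adjusted p = 0.0748) and within the high numbers (0.19, adjusted p = 0.135). Within the low numbers both ligands passed, GFP-mCherry with 0.42 (adjusted p = 0.000536) and mCherry-Fc with 0.46 (adjusted p = 0.000740), and within the high numbers the GFP-mCherry difference was -0.06 (adjusted p = 0.643). GFP-mCherry minus mCherry-Fc was -0.14 (adjusted p = 0.747), so the ligands were not separated.

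Socs7, described as a binder of signalling adaptors, had the smallest IL-22 difference of the 8 genes by their brightest probe set. It read 7.71, 7.81, 7.46 and 7.72 on untreated natural arrays and 7.76, 7.86, 7.80 and 7.77 with IL-22 (0.12, adjusted p = 0.382). In synthetic cells it read 7.62, 7.73 and 7.88 untreated, 7.82, 7.94 and 8.00 with GFP-mCherry, and 7.82, 7.89 and 8.00 with mCherry-Fc. GFP-mCherry raised it by 0.18 (SE 0.06, 1.13-fold, adjusted p = 0.0248), a call lost in 7 alternatives, 4 of which left out 1 array (synthetic untreated replicate 7, 9 or 11, or GFP-mCherry replicate 14). The mCherry-Fc difference of 0.15 missed the threshold (adjusted p = 0.0562) and passed it in 9 of 26 alternatives. Within the low numbers the differences were 0.28 (adjusted p = 0.00354) and 0.23 (adjusted p = 0.0139). They were 0.08 (adjusted p = 0.531) and 0.07 (adjusted p = 0.575) within the high ones. GFP-mCherry minus mCherry-Fc was 0.03 (adjusted p = 0.956), so the ligands were not separated. Centring arrays on their medians raises the median difference of all probe sets by 0.10 for GFP-mCherry and 0.11 for mCherry-Fc. Raised probe sets are then 88.8% and 89.0% of those called in place of 55.6% and 52.6%. Of the 12, 8 and 9 are then called, all higher, where 23.7% and 25% of all probe sets are raised.

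**Figure D2:**
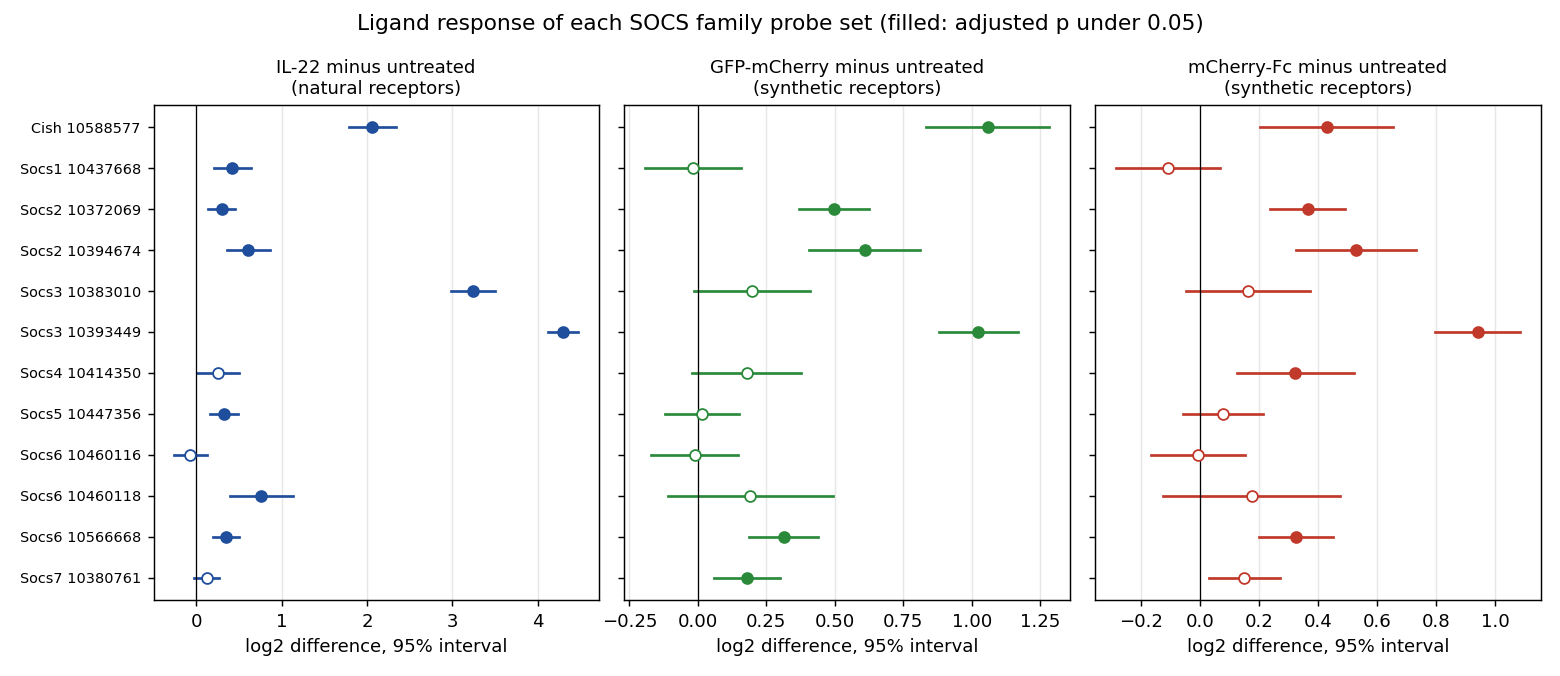
Log2 difference from untreated cells (x axis, a separate scale per panel, with the 95% interval) of each SOCS family probe set (y axis) for IL-22, GFP-mCherry and mCherry-Fc. Filled points pass the threshold. IL-22 has 9 filled points, led by Socs3 at 4.30 and 3.25 and Cish at 2.06, and each synthetic ligand has 6, with Socs2 near the IL-22 size.

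The responses were then compared as differences of differences. The GFP-mCherry response was below the IL-22 response for 5 of the 12 probe sets and above it for none, against 4.49% of all probe sets below and 13.7% changed in either direction. For mCherry-Fc it was 4 of 12 below and none above, against 4.64% below and 13.3% changed. Socs3 differed by -3.28 with GFP-mCherry (SE 0.11, adjusted p = 1.45e-17) and by -3.36 with mCherry-Fc (SE 0.11, adjusted p = 7.52e-18) on 10393449, and by -3.05 and -3.08 on 10383010. Cish differed by -1.0 (SE 0.17, adjusted p = 0.000168) and -1.63 (SE 0.17, adjusted p = 1.03e-07). The Cish difference for GFP-mCherry was -1.5 within the low numbers and -0.49 (adjusted p = 0.105) within the high ones. Socs1 differed by -0.44 (adjusted p = 0.0289) and -0.53 (adjusted p = 0.00887). The first was lost without natural IL-22 replicate 1 (-0.37, adjusted p = 0.0907) or natural untreated replicate 5 (-0.36, adjusted p = 0.0864), and the second with the replicate block (-0.41, adjusted p = 0.0600). Within the high numbers both were lost (-0.20, adjusted p = 0.616, and -0.29, adjusted p = 0.424). Socs5 differed by -0.31 for GFP-mCherry (adjusted p = 0.0494), a call lost in 22 of 34 alternatives, among them the replicate block (-0.26, adjusted p = 0.0688), and by -0.24 for mCherry-Fc (adjusted p = 0.128). It passed within neither range (-0.31, adjusted p = 0.0861, and -0.11, adjusted p = 0.683). The count for GFP-mCherry was 3 without either of the natural arrays named for Socs1.

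Socs2 and Socs6 (10566668) did not share this pattern. For Socs2 (10394674) the difference of responses lay between -0.32 and 0.32 for GFP-mCherry (95% interval, adjusted p = 0.996) and between -0.40 and 0.24 for mCherry-Fc (adjusted p = 0.772). For Socs6 it was -0.03 (-0.23 to 0.17) and -0.02 (-0.22 to 0.18). These intervals leave out differences of the size seen for Cish and Socs3, and they do not show that the responses were equal. Socs6 probe set 10460118 gave -0.57 (-1.04 to -0.09, adjusted p = 0.106) for GFP-mCherry. For mCherry-Fc it gave -0.58 (-1.06 to -0.11, adjusted p = 0.0967). Both missed the threshold in the main fit, and each passed it in 1 of 33 alternatives. Its GFP-mCherry interval includes the Cish difference for that ligand, so the Socs6 probe sets leave the gene's pattern unsettled. The other Socs2 probe set, 10372069, had a larger response to GFP-mCherry than to IL-22 within the low numbers (0.33, adjusted p = 0.0270), and not in the fit of all arrays (0.20, adjusted p = 0.183). Itgam differed between the lines on every array. Of 2 measured erythroid genes, Klf1 averaged 8.35 in untreated natural cells, 7.23 with IL-22, 8.92 in untreated synthetic cells, 8.52 with GFP-mCherry and 8.67 with mCherry-Fc. Epor averaged 7.90, 7.63, 7.83, 8.08 and 8.07 in the same groups. Their part in these differences was not tested.

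**Figure D3:**
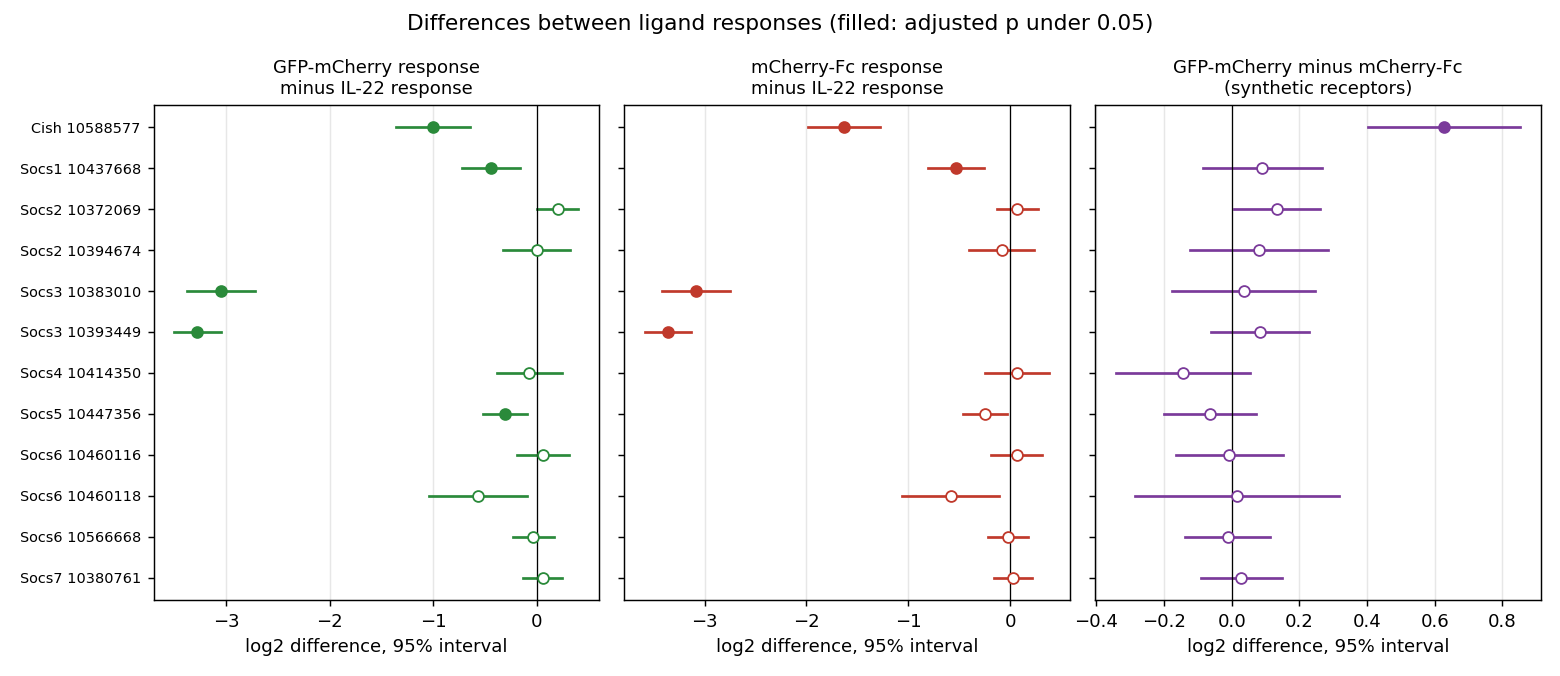
Differences between ligand responses (x axis, log2 with the 95% interval, a separate scale per panel) for each SOCS family probe set (y axis). The left and middle panels subtract the IL-22 response of natural cells from the GFP-mCherry and mCherry-Fc responses, and the right panel subtracts mCherry-Fc from GFP-mCherry. Filled points pass the threshold: Socs3 lies near -3 on the left, Socs2 near 0, and Cish alone is filled on the right at 0.63.

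Starved, untreated cells of the lines were compared for their SOCS levels before any ligand. Of the 12 probe sets, 2 differed, 1 in each direction, against 14.8% of all probe sets (8.28% higher and 6.56% lower in synthetic cells). The same 2 were those without overlap, against 9.89%. Cish was lower in synthetic cells by 0.75 on the log2 scale (-0.75, SE 0.12, adjusted p = 7.66e-05), and Socs5 was higher by 0.32 (SE 0.07, adjusted p = 0.00349). Neither passed within the low numbers (Cish -0.23, adjusted p = 0.10; Socs5 0.25, adjusted p = 0.0969), whereas both did within the high ones (-1.27, adjusted p = 3.66e-06, and 0.38, adjusted p = 0.00145). Socs2 (10394674) averaged to 0.00, made of -0.40 (adjusted p = 0.00241) within the low numbers and 0.40 (adjusted p = 0.000520) within the high ones. Socs6 (10460118) likewise went from -0.40 (adjusted p = 0.0437) to 0.77 (adjusted p = 0.00734). Socs4 went from -0.24 (adjusted p = 0.0564) to 0.50 (adjusted p = 0.00166). Socs2 (10372069) was lower in synthetic cells within the low numbers (-0.34, adjusted p = 0.00772) and not within the high ones (0.05, adjusted p = 0.639). Socs3 (10383010) was lower within the high numbers (-0.36, adjusted p = 0.0404) and not within the low ones (0.20, adjusted p = 0.287). In all, 6 of the 12 were called within the high numbers, where 28.8% of all probe sets were. The lines share no label number, so a range of one line has no matched range in the other.

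The label number ranges themselves separated untreated arrays of both lines for some members. High minus low was 0.79 for Cish, -0.56 for Socs2 (10394674), -0.30 for Socs4 and -0.56 for Socs6 (10460118) in untreated natural cells. It was -0.24, 0.24, 0.44 and 0.61 in untreated synthetic cells. Each rests on 2 or 3 arrays a side. For IL-22 arrays, with a single high one, the same differences were -0.04, -0.52, -0.39 and -0.06. They were -0.06, -0.02, -0.05 and 0.14 for GFP-mCherry arrays and -0.03, 0.15, 0.17 and 0.27 for mCherry-Fc arrays. Across the 26 arrays with group means taken out, Socs2 and Socs4 correlated at 0.77, Socs4 and Socs6 (10460118) at 0.77, the Socs2 probe sets at 0.83, and Cish and Socs2 at -0.66. These arrays share groups and label ranges, and the values are a description. The labels do not say what the numbers stand for.

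**Figure D4:**
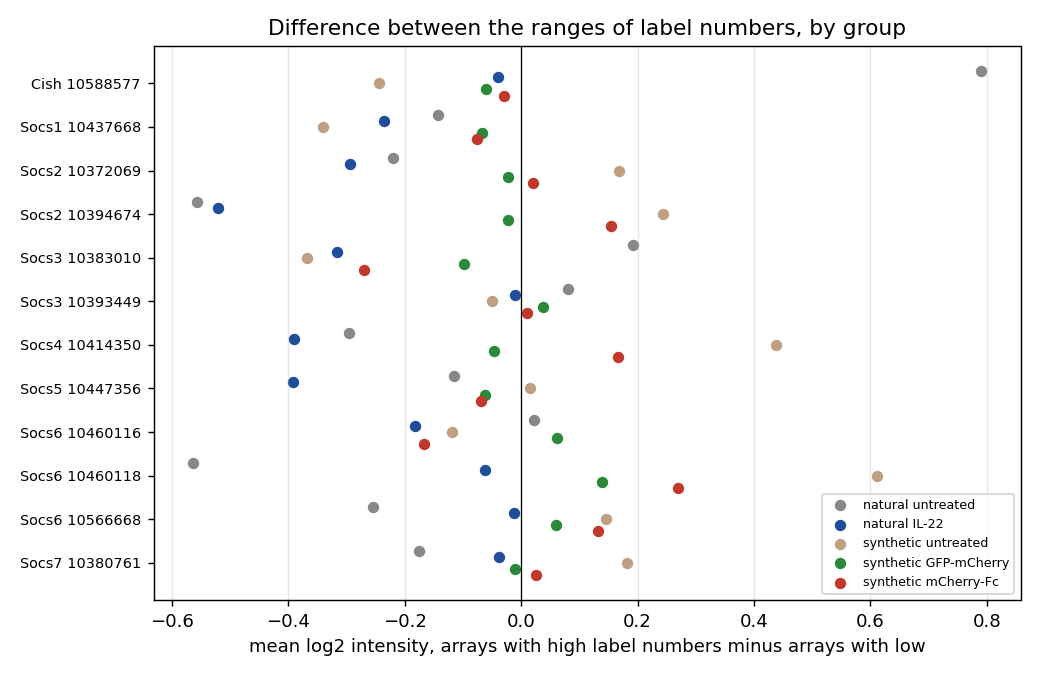
Mean log2 intensity of arrays with high label numbers minus that of arrays with low ones (x axis) for each SOCS family probe set (y axis), 1 point per group. Grey points (natural untreated) and tan points (synthetic untreated) lie on opposite sides of 0 for every probe set except Socs1. They lie farthest apart for Socs6 (10460118), Cish (0.79 and -0.24), Socs2 (10394674) and Socs4, while Socs3 (10393449) stays near 0 in all groups.

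The 5 genes whose levels followed each responsive member most closely over the 26 arrays were named by Pearson's r, a description that shares the same 5 groups. Predicted, small RNA and unnamed loci were left out, and each gene was named once. Many more ran alike: r was over 0.9 for 140 probe sets with Socs3, 141 with Cish and 50 with Socs2. For Socs3 they were Sbno2 (0.992), Il4ra (0.991), Zfp36 (0.980), Plscr1 (0.979) and Dnajb1 (0.978). Zfp36 encodes an mRNA decay factor and Il4ra the IL-4 receptor alpha chain. For Cish they were Ksr1 (0.981), Pgs1 (0.972), Ppp1r16b (0.970), Rhbdf2 (0.967) and B4galt5 (0.966). Pgs1 is the neighbour of Socs3 in the RefSeq gene order of GRCm38.p6. For Socs2 they were Snu13 (0.941), Rrp8 (0.940), Tmem11 (0.934), D10Wsu102e (0.934) and Eef1aknmt (0.934), of which Snu13 and Rrp8 act on ribosomal RNA. With group means taken out, r was -0.06 to 0.17 for the 5 Socs3 genes, 0.39 to 0.84 for the Cish genes and 0.77 to 0.89 for the Socs2 genes.

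The Cish-like genes were split between the synthetic ligands. Like Cish, Ksr1, a scaffold of the MAP kinase cascade, was higher with GFP-mCherry than with mCherry-Fc (0.51, adjusted p = 3.92e-06), as were B4galt5 (0.66, adjusted p = 1.09e-07) and Ppp1r16b (0.42, adjusted p = 0.0220), while Pgs1 (0.12, adjusted p = 0.533) and Rhbdf2 (0.06, adjusted p = 0.921) did not pass. Among the Socs3-like genes Il4ra passed (0.35, adjusted p = 0.00377) and the other 4 did not. None of the 5 Socs2-like genes passed. Since these genes were picked for their likeness over the same arrays, their values describe the pattern and do not support it.

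**Figure D5:**
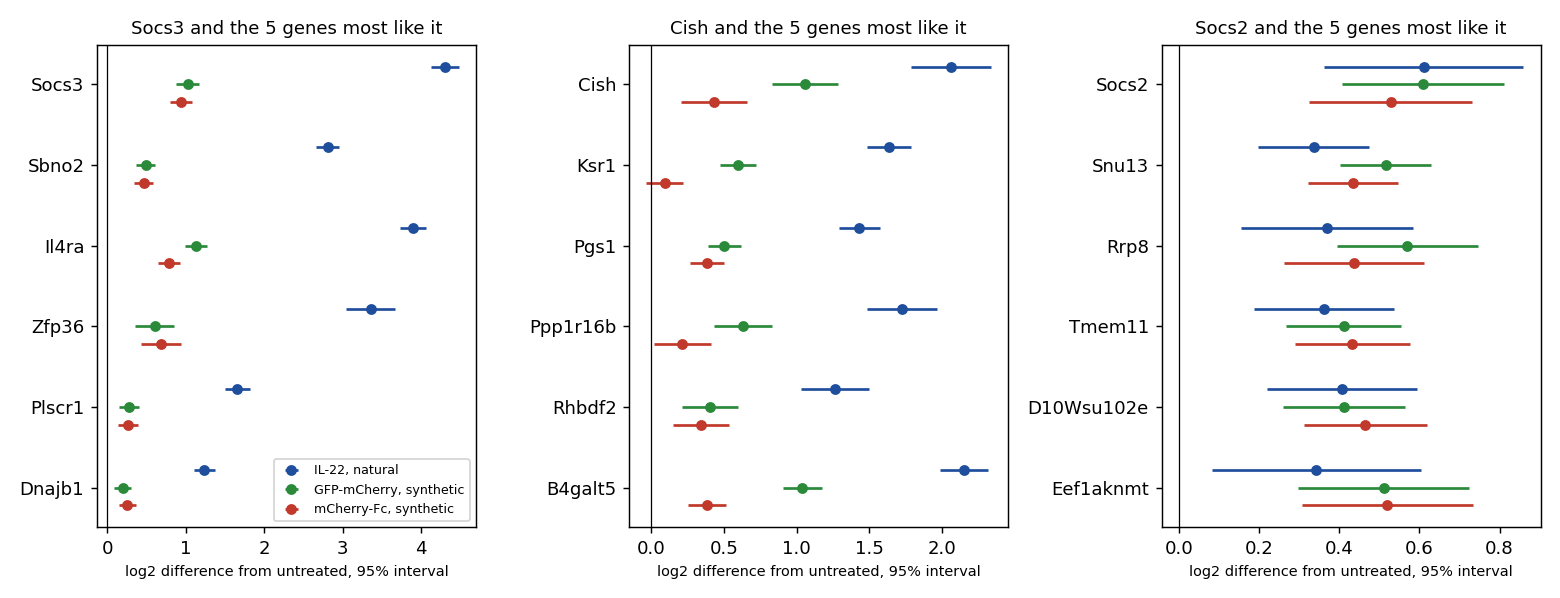
Log2 difference from untreated cells (x axis, with the 95% interval, a separate scale per panel) of Socs3, Cish and Socs2 (top row of each panel) and of the 5 genes most like each over 26 arrays, for IL-22 (blue), GFP-mCherry (green) and mCherry-Fc (red). In the Socs3 panel blue lies far right of the others, in the Cish panel green lies right of red, and in the Socs2 panel the 3 intervals overlap for every gene.

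The rest of the pathway was read by 1 probe set per gene, from lists chosen with earlier results of these data known. Each count is to be read against all probe sets, of which IL-22 raised 5.53% and lowered 5.81%, GFP-mCherry raised 14.7% and lowered 11.7%, and mCherry-Fc raised 14.2% and lowered 12.8%. Of 9 measured Janus kinase and STAT genes, which encode what SOCS proteins act on or answer to, IL-22 raised 4: Stat5a (1.53, adjusted p = 2.52e-17), Stat2 (1.22, adjusted p = 2.54e-12), Stat3 (0.98, adjusted p = 3.45e-12) and Jak2 (0.74, adjusted p = 3.63e-07). GFP-mCherry raised none and Stat2 fell by 0.27 (adjusted p = 0.00248), and mCherry-Fc changed none. Of 21 other STAT target genes, IL-22 raised 17 and lowered 1, GFP-mCherry raised 17 and mCherry-Fc 16, with none lowered. Their median differences were 1.04, 0.48 and 0.43, against -0.02, -0.04 and -0.03 over all probe sets. Of the 16 of these with a RefSeq promoter window, 3 hold TTCNNNGAA in at least 1 of their windows. The share of all windows with a match is 8.30%, which is counted per window and not per gene, so the measures differ.

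Other inhibitors of cytokine signals split in direction. Of 16 measured, IL-22 raised 3 and lowered 5, against 5.53% and 5.81% of all probe sets. Each synthetic ligand raised 4 and lowered 2, where the lowered share is near that of all probe sets (11.7% for GFP-mCherry and 12.8% for mCherry-Fc). Medians were 0.05, 0.02 and 0.07 for IL-22, GFP-mCherry and mCherry-Fc. Ptpn1, a phosphatase of Janus kinases, rose with all 3 ligands (0.43, 0.53 and 0.45 for IL-22, GFP-mCherry and mCherry-Fc). Spred1, a brake on the MAP kinase cascade, did too (0.76, 0.71 and 0.84), and Ptpn2, a phosphatase of Janus kinases and STATs, rose with IL-22 (0.55). Pias3 and Pias4, of a family of STAT inhibitors, fell by 0.67 and by 0.43 with IL-22. Spred2 rose with GFP-mCherry (0.91) and mCherry-Fc (0.93).

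The SOCS box works through a ubiquitin ligase of elongins, a cullin and a RING protein. Of its 6 measured subunit genes IL-22 raised 1, Eloc (0.52, adjusted p = 0.000333), against 5.53% of all probe sets. GFP-mCherry raised 3 and mCherry-Fc 4, against 14.7% and 14.2%, among them Elob (0.30 and 0.21), Cul2 (0.26 and 0.28) and Rbx1 (0.27 and 0.28). Of 18 other genes with a SOCS box, IL-22 raised 2 and lowered 1, GFP-mCherry raised 5 and lowered 3, and mCherry-Fc raised 4 and lowered 2. Of all probe sets 11.3%, 26.4% and 26.9% changed with these ligands. Wsb1 rose with IL-22 (0.52, adjusted p = 0.00127), and Wsb2 with GFP-mCherry (0.43, adjusted p = 2.11e-05) and mCherry-Fc (0.43, adjusted p = 4.37e-05). Of 21 receptor chains IL-22 raised 4 and lowered 2, with Il2ra (3.98) and Il4ra (3.89) first. GFP-mCherry raised 4 and lowered 1, and mCherry-Fc raised 3 and lowered 2, near the 26.4% and 26.9% of all probe sets changed. Of these, Ifngr2 rose by 1.30 with GFP-mCherry and 0.66 with mCherry-Fc, Il4ra by 1.13 and 0.79, and each was higher with GFP-mCherry (0.65, adjusted p = 0.00297, and 0.35, adjusted p = 0.00377).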

How the data were processed

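Biotin-labelled RNA was hybridised to Affymetrix arrays, 26 in all. Each deposited number is the log2 intensity of a probe set on an array, made by the authors with Affymetrix Expression Console 4.0, per the labels' description and the submitters' processing notes. The algorithm, background correction and genome build are not given in the sources used here. Of 35556 probe sets, 21789 carry 1 gene symbol, 1621 several and 12146 none, and the first were analysed. No dim probe sets were left out.

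A linear model per probe set over all 26 arrays in 5 groups was fitted with limma 3.58.1 in R 4.3.3 (lmFit, eBayes, two-sided), with Benjamini-Hochberg adjustment over 21789 and a threshold of 0.05. The 7 comparisons included 2 differences of responses. The fit was tested on simulated data. The members, lists and comparisons were chosen with earlier results of these data known. All 12 member probe sets are named, with up to 3 called genes per list. The 5 most correlated genes of Socs3, Cish and Socs2 are named too, leaving out predicted, small RNA and unnamed loci. Other list members named in the text were chosen after their values were seen. Sequences come from RefSeq's promoter table (GRCm38.p6).

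Pairing by label number was checked by correlating deviations from group means. Same-numbered arrays gave 0.300 to 0.601 for natural untreated and IL-22 (3 pairs). They gave 0.258 to 0.464 for synthetic untreated and mCherry-Fc (3 pairs) and 0.102 to 0.266 for mCherry-Fc and GFP-mCherry (3 pairs). All exceeded 0.1, but the same number was the best match in only 2, 1 and 2 of these pairs, so pairing is uncertain. For untreated and GFP-mCherry, 4 of 6 pairs exceeded 0.1 and 2 were best matches, so these were taken to share only a number. The main fit and its p-values use no pairing. The replicate blocks join all same-numbered arrays of a line, untreated and GFP-mCherry included. Low label numbers are natural 1 to 3 and synthetic 7 to 11. Alternatives covered normalization, centring, probe sets per gene, dim filters at 5 and 7, variance prior, array weights, samples in the fit, a minimum change of 1.5-fold, replicate blocks, number ranges and leaving out each array.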

Additional observations from a re-analysis of the deposited data

Results flagged for a closer look

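Of 60 groups of 4 or 6 arrays checked over the 12 SOCS probe sets, 1 held an array far from the others: Socs4 on natural IL-22 replicate 5 read 8.48, with the nearest array at 8.85 and a gap of 0.856 of the range. Chance alone would set apart about 1 group in 20. Differences between the responses of the lines passed the test for 9 probe set and ligand pairs. For GFP-mCherry minus IL-22 they were Socs3 (-3.28 and -3.05), Cish (-1.0), Socs1 (-0.44) and Socs5 (-0.31). For mCherry-Fc minus IL-22 they were Socs3 (-3.36 and -3.08), Cish (-1.63) and Socs1 (-0.53). Line, receptor and ligand change together in these differences and cannot be told apart.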

How the results depend on the processing

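Over the alternatives, 2120 of the values of single SOCS probe sets kept their call. A further 70 lost and 32 gained the threshold. Another 2, not called in the main fit, passed it with a sign opposite to their main value. Values that passed in neither fit count as kept even where their sign changed. An example is Socs1 with GFP-mCherry, which ran from -0.15 to 0.12. The 2 that passed with the opposite sign were Socs2 (10394674) and Socs6 (10460118) between untreated lines. Both were -0.40 within the low label numbers, against 0.00 (adjusted p = 0.989) and 0.19 (adjusted p = 0.567) in the main fit. Requiring a change of over 1.5-fold left 3 probe sets called for IL-22, 1 for GFP-mCherry, 1 for mCherry-Fc, 0 between the synthetic ligands, 2 for the GFP-mCherry minus IL-22 response and 0 between untreated lines. With the replicate number as a fixed block, 0 differed between the synthetic ligands, against 8 for IL-22, 6 for GFP-mCherry and 5 for mCherry-Fc. No other call changed with the block than those named with their values. No paired fit was possible between the lines because they share no number. Within the high numbers, 2 were called for the GFP-mCherry minus IL-22 response and 6 between untreated lines, against 4.55% and 28.8% of all probe sets. There IL-22 has 1 array, assumed to vary like the other groups. Leaving out 1 array gave 3 to 6 for the GFP-mCherry minus IL-22 response, 9 to 10 for IL-22, 5 to 7 for GFP-mCherry, 6 to 7 for mCherry-Fc, 4 to 5 for the mCherry-Fc minus IL-22 response, 1 between the ligands and 2 between lines. Centring moved the share of raised among called probe sets of the GFP-mCherry minus IL-22 response from 67.3% to 83.0%, and of the mCherry-Fc minus IL-22 response from 65.0% to 82.2%. The number of arrays limits precision, and causes of these shifts were not tested.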
